A study of Mus musculus with 2 samples.

Results

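Zinc, iron and copper handling genes were compared between mammary epithelial cells (MECs) of wild type (WT) and *Igfbp7-/-* mice on day 3 of lactation. The genes were taken by name: every listed gene of the Slc30a and Slc39a zinc transporter families, together with named genes of iron uptake, storage, export and sensing, of the metallothioneins and of copper transport. The rule found 42 of the 25810 genes with a symbol. *Tfr2*, which the rule also names, is listed under the older symbol *Trfr2* and was not taken in, and it had 2 reads in WT and none in *Igfbp7-/-*.

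Each genotype had 1 library, made from poly(A) RNA of inguinal glands and sequenced on a SOLiD instrument. The *Igfbp7-/-* mice lack the first coding exon of *Igfbp7*, and the WT mice carry the intact gene. Both groups are labelled C57BL/6, while the methods place the knockout on CD1, and neither the age of the animals nor their number per library was stated in the sources used here. In both groups cells positive for CD45, Ter119 and CD31 (CD35 in the labels) were removed with magnetic beads. The methods report a FACS check after the separation, and the authors deemed the remaining share of such cells insignificant. Without replicates no comparison was tested, the genotype and the library cannot be told apart, and the 95% intervals below cover the counting of reads only.

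Cells import zinc through Slc39a (ZIP) proteins and move it out of the cytosol, to the outside or into vesicles, through Slc30a (ZnT) proteins. Iron enters most cells bound to transferrin through the transferrin receptor, is stored in ferritin and leaves through ferroportin, while metallothioneins bind zinc and copper in the cytosol. In the lactating gland the secretory epithelium has to pass zinc, iron and copper from blood to milk, and transferrin itself is a milk protein in the mouse.

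The libraries held 34327854 mapped reads in WT and 35016847 in *Igfbp7-/-*, of which 82.3% and 72.3% fell on genes with a symbol. Values are given as reads per 1000000 mapped reads (RPM). Levels of different genes are compared by RPKM, which is the RPM divided by gene length in kilobases. The floor of 3 reads was 0.0874 RPM in WT and 0.0857 in *Igfbp7-/-*. *Igfbp7* itself had 152 RPM in WT and 1.06 in *Igfbp7-/-*. Both libraries held the epithelial markers at high levels, with summed milk protein markers at 125899 RPM in WT and 46974 in *Igfbp7-/-*. All 6 of these markers were lower in *Igfbp7-/-* by at least 1.5 times, while 3 of 6 luminal markers were higher. Markers of other cells differed as well: 8 of 11 macrophage, 5 of 6 endothelial, 4 of 6 fibroblast, 3 of the 4 adipocyte markers with at least 1 RPM and 5 of 6 myoepithelial markers were lower. The summed level of these lists went from 1138 to 366 RPM for endothelial, from 9060.1 to 4582 RPM for fibroblast, from 563 to 192 RPM for adipocyte and from 3018 to 959.9 RPM for myoepithelial markers. The macrophage sum, 714 and 773 RPM, was mostly *Cd14* (469.9 and 677 RPM), and the adipocyte sum was mostly *Fabp4* (543.5 and 173 RPM). The macrophage and adipocyte sums thus each mainly followed 1 gene. In such bulk RNA fewer cells of a type and less RNA per cell cannot be told apart. The part of these cells in the ratios below was not tested.

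Iron regulatory proteins, which are encoded by the members *Aco1* and *Ireb2*, bind short hairpins called iron responsive elements in the untranslated regions (UTRs) of iron genes. In a 5' UTR such an element holds back translation when iron is low, and in the 3' UTR of the transferrin receptor transcript it protects the mRNA. The elements are shown because they are the sequence that iron genes of different function have in common. Annotated UTRs (GENCODE vM1, NCBIM37 build) were searched on the transcript strand for a C, 5 bases, the loop CAGTGN with N other than G, and 5 bases that pair with the first 5, G-T pairs included. Among the members, 3 genes carried the pattern in a 5' UTR and 1 in a 3' UTR. Over all genes with an annotated UTR, 0.111% (22 of 19854) carried it in a 5' UTR and 0.462% (92 of 19915) in a 3' UTR. Each element is printed 5' to 3' with DNA letters and with the 6 loop bases in capitals. The 5' UTR elements, all in exon 1, lie at chr19:10057221-10057250 (plus strand, *Fth1*), chr7:52715149-52715178 (minus strand, *Ftl1*) and chr1:45982310-45982339 (minus strand, *Slc40a1*).
Fth1 5' UTR: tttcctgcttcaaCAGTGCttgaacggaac
Ftl1 5' UTR: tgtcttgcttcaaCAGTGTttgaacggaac
Slc40a1 5' UTR: ccaacttcagctaCAGTGTtagctaagttt

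The pattern matched 4 times in *Tfrc*, and elements that depart from it were not searched for. These 4 lie within the last exon (exon 19) on the plus strand, at chr16:32631304-32631333, chr16:32631683-32631712, chr16:32631748-32631777 and chr16:32631795-32631824.
Tfrc 3' UTR element 1: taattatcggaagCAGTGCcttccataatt
Tfrc 3' UTR element 2: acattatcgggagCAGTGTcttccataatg
Tfrc 3' UTR element 3: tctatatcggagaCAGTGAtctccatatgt
Tfrc 3' UTR element 4: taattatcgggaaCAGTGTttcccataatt

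The 4 genes with an element did not share a direction of difference. *Tfrc* was lower in *Igfbp7-/-* (126 and 76.0 RPM), *Slc40a1* was higher (3.23 and 5.57 RPM), and both passed 1.5 times. *Fth1* (2598 and 3735 RPM) and *Ftl1* (46.0 and 38.9 RPM) stayed within 1.5 times. A matching pattern is a description of the sequence, and the pattern was not found in the annotated UTRs of *Slc11a2*, which says only that these letters are not there.

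The ratio of *Igfbp7-/-* to WT was taken after adding 0.1 RPM to both values, and a gene was counted as higher or lower at a ratio of at least 1.5. At least 1 RPM in one library was reached by 37 of the 42 genes. All 37 also averaged at least 1 RPM over both libraries, although *Slc39a4* (0.70 RPM in WT) reached the minimum only in *Igfbp7-/-*. Of the 37 genes, 5 (13.5%) were higher in *Igfbp7-/-* and 7 (18.9%) were lower, while 21.4% of all 14026 genes above the minimum were higher and 23.0% were lower. Where one library or both reached 10 RPM, 7 of 30 members (23.3%) passed 1.5 times in either direction, against 41.1% of all 8201 such genes. The median log2 ratio of the 37 genes was -0.02, beside 0.03 over all genes, and the middle of the distribution ran from -0.26 to 0.34, beside -0.52 to 0.51 over all genes. Within 1.5 times lay 25 of the 37 genes (67.6%), and the ratios ranged from -1.99 for *Slc39a8* to 2.21 for *Slc39a4*. These shares describe 2 libraries and carry no test.

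**Figure D1:**
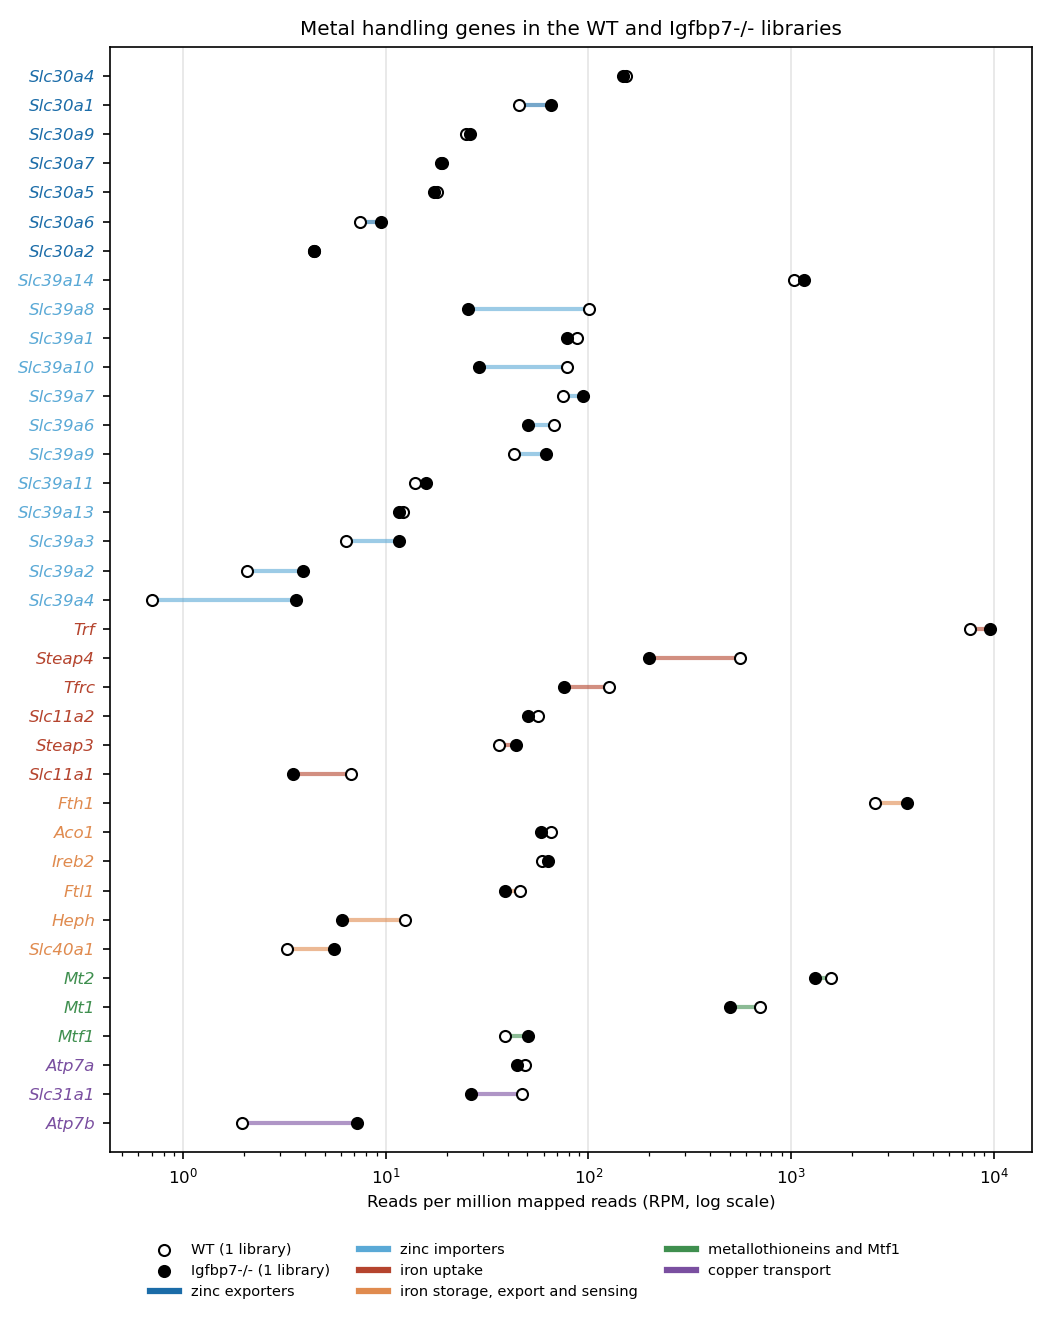
RPM on a log scale (x axis) of the 37 metal handling genes that reached 1 RPM (y axis, grouped and coloured by role); open circles are the WT library, filled circles the Igfbp7-/- library, and the line joins them. Trf, Fth1, Mt2 and Slc39a14 sit at or above the 1031 RPM of Slc39a14 in WT, and the longest lines among abundant genes belong to Slc39a8, Slc39a10 and Steap4.

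**Figure D2:**
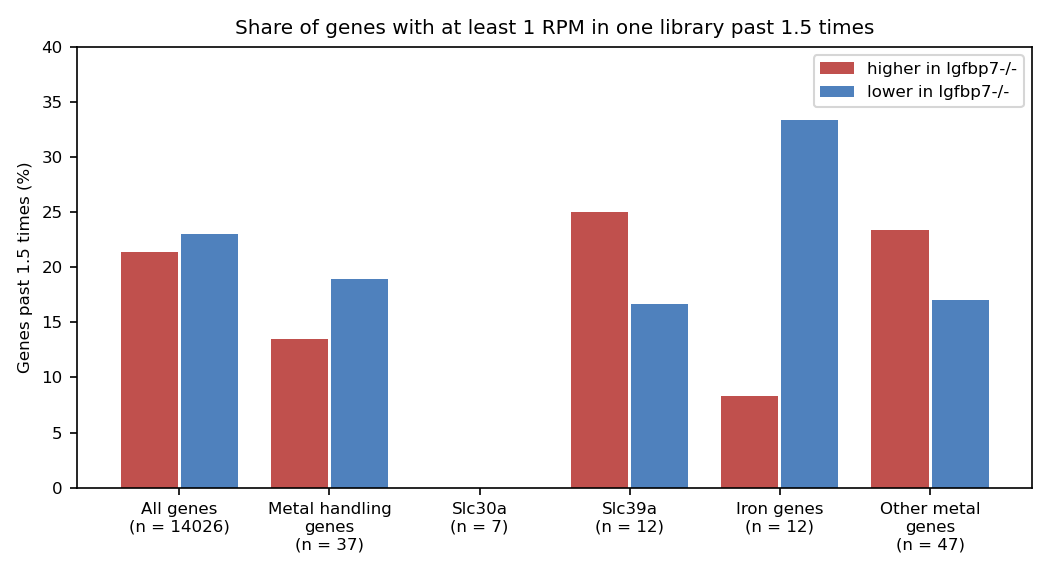
Share of genes (y axis, %) that were higher (red) or lower (blue) in Igfbp7-/- by at least 1.5 times, among genes that reached 1 RPM in either library, for all genes and for the groups on the x axis (n, genes in each). No Slc30a gene passed 1.5 times in either direction, and 4 of 12 iron genes were lower (33.3%) while 1 was higher (8.33%).

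The zinc exporters were the steadiest group. Of the 10 Slc30a genes, 7 had at least 1 RPM in one library, and 0 of the 7 passed 1.5 times in either direction, so the group's share was 0% beside 21.4% and 23.0% over all genes. Their log2 ratios lay between -0.05 and 0.53. *Slc30a4*, which is mutated in the lethal milk mouse whose milk lacks zinc, was the exporter with the highest RPKM in both libraries (28.1 and 27.1). It had 154 RPM in WT and 148 in *Igfbp7-/-*, a log2 ratio of -0.05 (interval -0.13 to 0.02). *Slc30a2* loads zinc into secretory vesicles, and its human counterpart is needed for zinc in milk. It had 4.40 RPM in both libraries, from 151 and 154 reads (log2 ratio interval -0.47 to 0.49). By RPKM *Slc30a4* was 9.40 times as high as *Slc30a2* in WT and 9.05 times as high in *Igfbp7-/-*. With the deposited values, the 2 exporters known for milk zinc thus differed in level from each other and not, by more than the counting of reads, between the libraries. With scaling to the reads on listed genes, *Slc30a4* was at 0.13, outside its interval but within 1.5 times. *Slc30a2* was then at 0.18, inside its interval.

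*Slc30a1*, the exporter of the plasma membrane, came nearest to the threshold, with 45.3 RPM in WT and 65.3 in *Igfbp7-/-* (log2 ratio 0.53, interval 0.39 to 0.66). When the counts were scaled to the reads on listed genes, which raised the median of all genes by 0.19, it was past 1.5 times, at 0.71. The transporters of the secretory pathway stayed within 1.5 times. *Slc30a5* had 17.9 and 17.3 RPM in WT and *Igfbp7-/-*, and *Slc30a7* had 18.8 and 18.6 RPM, both close to equal. *Slc30a6*, the partner of *Slc30a5*, had 7.49 and 9.48 RPM (log2 ratio 0.34, interval 0.005 to 0.69). *Slc30a9*, a transporter of mitochondria, had 24.9 and 25.96 RPM. The remaining exporters were at or near 0: *Slc30a8* and *Slc30a10* had no reads in either library, and *Slc30a3* had none in WT and 2 reads in *Igfbp7-/-*, all under the floor of 3 reads.

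The zinc importers had members past 1.5 times in both directions. Of the 14 Slc39a genes, 12 had at least 1 RPM in one library, and of these 3 (25%) were higher in *Igfbp7-/-* and 2 (16.7%) were lower by at least 1.5 times, shares close to the 21.4% and 23.0% over all genes. *Slc39a8* and *Slc39a10*, both transporters of the cell surface, were lower, and *Slc39a2*, *Slc39a3* and *Slc39a4* were higher. By RPKM the 3 that were higher ranked 17, 18 and 19 in WT among the 19 zinc transporters above the minimum, and the 2 that were lower ranked 4 and 7.

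*Slc39a8*, which carries zinc and manganese, had the lowest ratio of all 37 genes. It had 3466 reads in WT and 887 in *Igfbp7-/-* (101.0 and 25.3 RPM), a log2 ratio of -1.99 (interval -2.15 to -1.85), or 3.97 times lower. The gene lies on chromosome 3 at 135488243 to 135551536 (plus strand, NCBIM37), and 3.96% of all genes above the minimum had a lower ratio. *Slc39a10* had 2684 reads in WT and 1011 in *Igfbp7-/-* (78.2 and 28.9 RPM), and its log2 ratio was -1.43 (interval -1.59 to -1.29). It lies on chromosome 1 at 46864389 to 46910891 (minus strand). *Slc39a6*, the closest relative of *Slc39a10*, had 67.8 RPM in WT and 50.5 in *Igfbp7-/-* (-0.42). In the same library 5 of 6 endothelial, 4 of 6 fibroblast and 8 of 11 macrophage markers were lower, beside 23.0% of all genes. *Cd14*, *Itgam* and *Pdgfra* had ratios above 0, and the macrophage sum was not lower (714 and 773 RPM). Epithelial lists differed too: 6 of 6 milk protein and 5 of 6 myoepithelial markers were lower. Of the luminal markers 3 of 6 were higher, beside 21.4% of all genes. The part of any of these cells in the values of *Slc39a8* and *Slc39a10* was not tested.

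Among the importers that were higher, *Slc39a3* had 218 reads in WT and 406 in *Igfbp7-/-* (6.35 and 11.6 RPM), with 0.86 as the log2 ratio (interval 0.53 to 1.22). It lies on chromosome 10 at 80491283 to 80500171 (minus strand). *Slc39a4*, the zinc importer of the intestine, had 24 reads in WT and 126 in *Igfbp7-/-* (0.70 and 3.60 RPM). Its log2 ratio was 2.21 (interval 1.46 to 3.39), the highest of the 37 genes, and with an added 1 RPM in place of 0.1 RPM it was 1.44. *Slc39a2* had 71 reads in WT and 136 in *Igfbp7-/-* (2.07 and 3.88 RPM) (0.88, interval 0.32 to 1.56). The intervals of *Slc39a2* and *Slc39a3* reached below 1.5 times.

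*Slc39a14*, which carries zinc, manganese and iron not bound to transferrin, was far above the rest of the family. It had 1031 RPM in WT and 1161 in *Igfbp7-/-*, a log2 ratio of 0.17 (interval 0.14 to 0.20). By RPKM it was the highest zinc transporter in both libraries (209 and 236), with *Slc39a1*, the next in WT, 5.58 times lower. The ratio of *Slc39a14* to its close relative *Slc39a8* by RPKM was 7.32 in WT and 32.9 in *Igfbp7-/-*. The relatives thus kept their order and were further apart in *Igfbp7-/-*.

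The other importers stayed within 1.5 times. At the cell surface *Slc39a1* had 87.9 RPM in WT and 78.2 in *Igfbp7-/-*. *Slc39a7*, which releases zinc from the endoplasmic reticulum, had 74.9 and 94.4 RPM. *Slc39a9* had 42.8 and 61.7 RPM, a log2 ratio of 0.53 that passed 1.5 times (0.72) with scaling to the reads on listed genes. *Slc39a11* had 13.9 and 15.7 RPM, and *Slc39a13*, a transporter of the early secretory pathway, had 12.2 and 11.7 RPM. *Slc39a5* (0.52 and 0.54 RPM) and *Slc39a12* (0.06 and 0.06 RPM) did not reach 1 RPM in either library. Summed over the family, the Slc39a genes held 1519 RPM in WT and 1547 in *Igfbp7-/-*, and the Slc30a genes held 273 and 289 RPM.

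**Figure D3:**
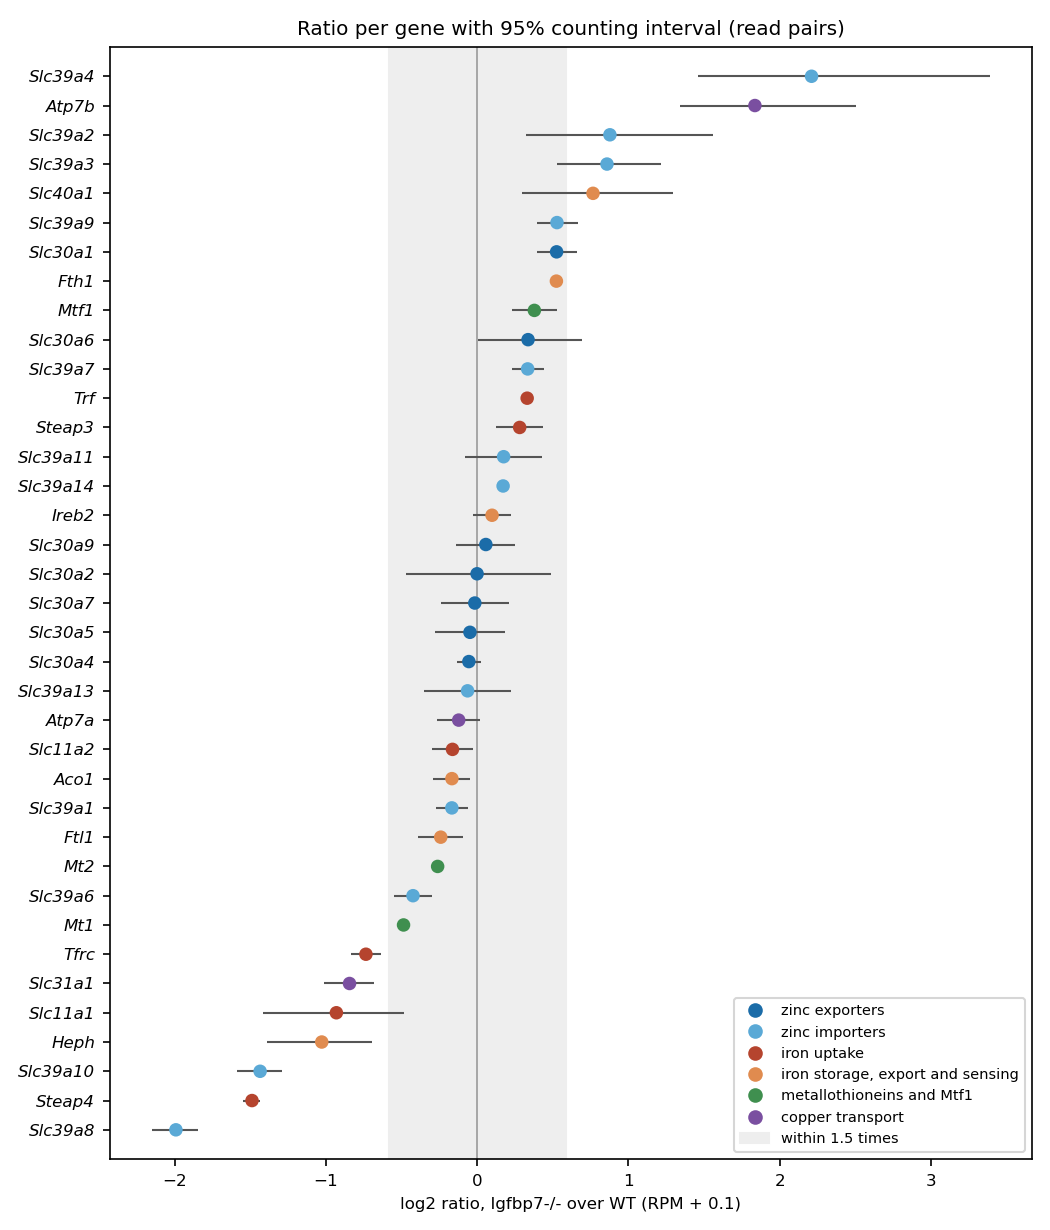
log2 ratio of Igfbp7-/- to WT (x axis, RPM + 0.1) of the 37 genes (y axis, sorted), with points coloured by role, the 95% Clopper-Pearson interval on read pairs as a line, and the range within 1.5 times shaded. From Tfrc (-0.73) down to Slc39a8 (-1.99), 7 genes lie left of the shaded range, and from Slc40a1 (0.77) up to Slc39a4 (2.21), 5 lie right of it.

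Of the 6 iron uptake genes, 3 were lower by at least 1.5 times and none was higher, beside 23.0% lower and 21.4% higher over all genes. *Trf*, which encodes transferrin, the iron carrier of serum and a milk protein, had 261870 reads in WT and 335956 in *Igfbp7-/-* (7628 and 9594 RPM). The ratio was 0.33 on the log2 scale (interval 0.32 to 0.34), within 1.5 times, and by RPKM it ranked 9 among all genes in both libraries. The 6 milk protein markers were all lower by at least 1.5 times in the same library, *Csn2* (β-casein) from 53087 to 19970.1 RPM. The milk protein transferrin thus had a ratio above 0 where the casein and whey markers were lower. *Trf* took 0.763% of mapped reads in WT and 0.959% in *Igfbp7-/-*.

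*Tfrc* encodes the transferrin receptor, which takes iron-loaded transferrin into the cell. It had 4342 reads in WT and 2660 in *Igfbp7-/-* (126 and 76.0 RPM), a log2 ratio of -0.73 (interval -0.84 to -0.64). The gene, which carries the 4 3' UTR elements printed above, lies on chromosome 16 at 32609006 to 32632880 (plus strand). It was the closest of the lower genes to the threshold, and with scaling to the reads on listed genes it was within 1.5 times, at -0.55. The level of *Trf* was 127 times that of *Tfrc* by RPKM in WT and 266 times in *Igfbp7-/-*.

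Steap proteins reduce iron and copper before transport. *Steap4*, a metal reductase known from adipocytes, had 19235 reads in WT and 6994 in *Igfbp7-/-* (560.3 and 199.7 RPM). The ratio was -1.49 on the log2 scale (interval -1.54 to -1.43), or 2.80 times lower, and it lies on chromosome 5 at 7960472 to 7982213 (plus strand). *Steap3*, the reductase that acts on iron released from transferrin, differed in direction, with 36.1 RPM in WT and 43.9 in *Igfbp7-/-* (0.28, within 1.5 times). By RPKM *Steap4* was 15.5 times as high as *Steap3* in WT and 4.55 times as high in *Igfbp7-/-*. Of the 4 adipocyte markers above the minimum, 3 were lower in the same library, such as *Fabp4* (543.5 and 173 RPM), and Lep was higher (8.04 and 16.8 RPM), and their part in the value of *Steap4* was not tested.

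The proton-coupled transporters of the Slc11a family differed in level. *Slc11a2*, which moves iron out of endosomes, had 56.3 RPM in WT and 50.3 in *Igfbp7-/-*, a log2 ratio of -0.16. *Slc11a1*, a transporter of macrophage phagosomes, had 231 reads in WT and 122 in *Igfbp7-/-* (6.73 and 3.48 RPM). The log2 ratio of -0.93 passed 1.5 times, although its interval (-1.42 to -0.48) reached within it. Beside 23.0% of all genes, 8 of 11 macrophage markers were lower as well, such as *Cd68* (43.8 and 17.6 RPM) and *Emr1* (8.42 and 2.91 RPM). Of the others, *Cd14* (469.9 and 677 RPM) and *Itgam* (4.78 and 6.28 RPM) had ratios above 0, and *Mrc1* was within 1.5 times. The macrophage sum was not lower (714 and 773 RPM). The part of macrophages in the value of *Slc11a1* was not tested.

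In iron storage, *Fth1*, the ferritin heavy chain that oxidises iron on entry, ranked second to *Trf* among the 42 genes by RPKM in WT and above it in *Igfbp7-/-*. It had 2598 RPM in WT and 3735 in *Igfbp7-/-*, a log2 ratio of 0.52 (interval 0.51 to 0.54), which is 1.44 times. Scaled to the reads on listed genes, it was past the threshold, at 0.71. Among all genes it ranked 11 by RPKM in WT and 8 in *Igfbp7-/-*. The ratio of *Fth1* to *Ftl1*, the light chain, was 64.3 by RPKM in WT and 109 in *Igfbp7-/-*. The light chain value is uncertain, because *Ftl2*, listed on chromosome 4, is a near-identical copy and the handling of reads with several matches was not given in the sources used here. *Ftl2* had 169 and 176 RPM, and *Ftl1* and *Ftl2* together had 215.0 RPM in WT and 215.1 in *Igfbp7-/-*. By RPKM *Ftl2* was at 177 and 184, beside 46.7 and 39.5 for *Ftl1*. The ratio of *Fth1* to *Ftl1* alone thus leaves out the larger part of these reads.

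Iron export genes were weak. *Slc40a1*, which encodes ferroportin, the known exporter of iron from cells, had 111 reads in WT and 195 in *Igfbp7-/-* (3.23 and 5.57 RPM). The log2 ratio was 0.77 (interval 0.30 to 1.29), and the interval reached below 1.5 times. *Heph*, a ferroxidase that works with ferroportin, had 427 reads in WT and 212 in *Igfbp7-/-* (12.4 and 6.05 RPM). Its log2 ratio was -1.03 (interval -1.39 to -0.69), and it lies on the X chromosome at 93650698 to 93769824 (plus strand). *Slc40a1* and *Heph* thus passed 1.5 times in opposite directions. Another ferroxidase gene, *Cp*, was higher in *Igfbp7-/-*, with an RPKM of 41.2 in WT and 88.6 in *Igfbp7-/-*, beside 2.65 and 1.29 for *Heph*.

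The iron sensors stayed close to equal. *Aco1*, the cytosolic aconitase that binds iron responsive elements once it has lost its iron-sulfur cluster, had 65.4 RPM in WT and 58.3 in *Igfbp7-/-*, a log2 ratio of -0.17 that was 0.02 with scaling to the reads on listed genes. *Ireb2*, the second such protein, had 58.7 and 62.8 RPM, a log2 ratio of 0.10 (interval -0.03 to 0.22). Of the 12 iron genes as a whole, 4 (33.3%) were lower and 1 (8.33%) was higher, beside 23.0% and 21.4% over all genes.

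Metallothioneins were abundant in both libraries and stayed within 1.5 times. *Mt2* had 1566 RPM in WT and 1307 in *Igfbp7-/-*, a log2 ratio of -0.26 (interval -0.29 to -0.24). *Mt1* had 701 RPM in WT and 501 in *Igfbp7-/-*, a log2 ratio of -0.49 (interval -0.53 to -0.45). By RPKM *Mt2* ranked 13 and *Mt1* ranked 25 among all genes in WT, and 14 and 32 in *Igfbp7-/-*. The ratio of *Mt2* to *Mt1* was 2.34 in WT and 2.74 in *Igfbp7-/-*. *Mtf1*, the zinc-sensing factor that activates both, had 38.5 RPM in WT and 50.1 in *Igfbp7-/-* (0.38). With scaling to the reads on listed genes the ratios were -0.30 for *Mt1*, -0.07 for *Mt2* and 0.57 for *Mtf1*, in the same directions.

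*Mtf1* binds metal response elements, and their core is shown for the metallothioneins because these are its best known targets. The core was searched as TGCACNC or TGCGCNC on both strands, where cores may overlap, in RefSeq promoters (250 bases before to 50 after the annotated start, GRCm38.p6), which matched 34 of the 42 genes. The promoter of *Mt1* held 3 cores and that of *Mt2* held 4, while of all 27018 genes with a promoter 2.27% held at least 3 and 0.588% at least 4, counted in the promoter of each gene that held the most. At least 1 core was found for 17 of the 34 genes (50.0%), beside 28.2% of all genes. *Slc30a1*, another known target, held 2. Each printed window of 30 bases, with the cores in capitals, is the one with the most cores, and among equals the one whose core is nearest to the start. They lie at chr8:94179088-94179117 for *Mt1*, with 2 cores, and at chr8:94172610-94172639 for *Mt2*, with 1 core on the opposite strand. All printed cores lie after the annotated start. The first core of each promoter, not printed, lies before it, at -23 for *Mt1* and -223 for *Mt2*. The start used in these cells was not determined, so these places hold for the annotation only. Cores outside the searched bases were not counted.
Mt1: ctcTGCACTCcgcccgaaaagTGCGCTCgg
Mt2: agaattcgggtcGTGCGCAggcccaggggc

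*Mt1* and *Mt2* had ratios below 0 and *Slc30a1* had a ratio above 0, all within 1.5 times. *Slc30a4* and *Slc30a10* also held 3 cores, and the former was nearly equal in the libraries while the latter had no reads.

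Copper transporters went in different directions. *Slc31a1*, the importer of copper at the cell surface, had 1619 reads in WT and 919 in *Igfbp7-/-* (47.2 and 26.2 RPM). Its log2 ratio was -0.84 (interval -1.01 to -0.68), and it lies on chromosome 4 at 62021761 to 62052803 (plus strand). *Atp7b*, a copper pump that is mutated in the toxic milk mouse whose milk lacks copper, had 67 reads in WT and 253 in *Igfbp7-/-* (1.95 and 7.23 RPM). On the log2 scale the ratio was 1.84 (interval 1.34 to 2.50), or 3.57 times higher. *Atp7a*, the related pump of most other tissues, had 48.4 RPM in WT and 44.5 in *Igfbp7-/-*, a log2 ratio of -0.12. By RPKM *Atp7a* was 14.3 times as high as *Atp7b* in WT and 3.56 times as high in *Igfbp7-/-*. The importer was lower, one pump was higher and the more abundant pump stayed within 1.5 times.

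**Figure D4:**
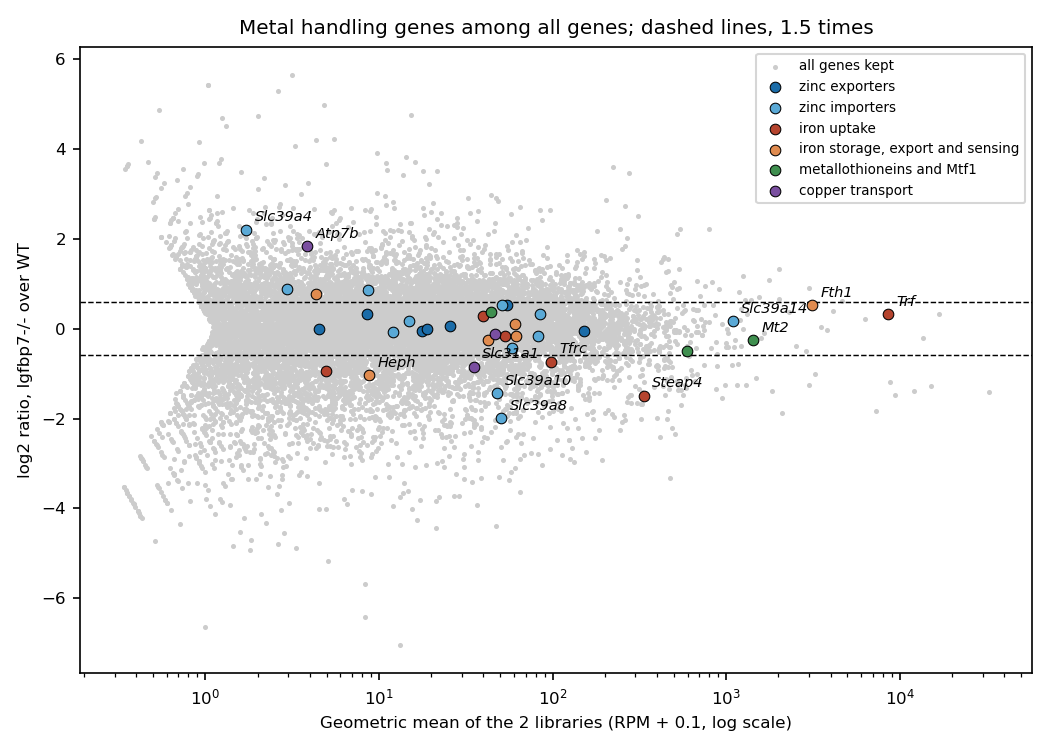
log2 ratio of Igfbp7-/- to WT (y axis) against the geometric mean of both libraries (x axis, RPM + 0.1, log scale) for the 14026 genes that reached 1 RPM (grey) and the 37 metal handling genes (coloured by role, some labelled); dashed lines mark 1.5 times. Slc39a8, Slc39a10 and Steap4 lie below the lower line at well-measured levels, Slc39a4 and Atp7b lie above the upper line at low levels, and Trf, Fth1, Mt2 and Slc39a14 lie between the lines.

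Further genes of metal handling were counted as a list of 55, of which 47 had at least 1 RPM in one library. Of these, 11 (23.4%) were higher in *Igfbp7-/-* and 8 (17.02%) were lower by at least 1.5 times, beside 21.4% and 23.0% over all genes, and their median log2 ratio was -0.01. With at least 10 RPM in either library, 13 of 30 (43.3%) were past 1.5 times, close to the 41.1% over all genes. The ferroxidases were divided: *Cp*, ceruloplasmin, was higher in *Igfbp7-/-* (188 and 404 RPM, log2 ratio 1.11), whereas *Hephl1*, a relative of *Heph*, was lower (23.2 and 13.5 RPM, -0.77). Among the Steap relatives, *Steap2* (26.8 and 13.8 RPM, -0.95) and *Steap1* (9.03 and 4.85 RPM, -0.88) were lower.

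Of the genes that act with the iron sensors and ferritin, *Fbxl5*, which targets *Ireb2* for degradation when iron is high, was 2.004 times as high in *Igfbp7-/-* (72.5 and 145 RPM). *Ncoa4*, which delivers ferritin to lysosomes, had 40.5 RPM in WT and 36.4 in *Igfbp7-/-* (-0.15). *Ltf*, which encodes lactoferrin, was higher (369 and 1711 RPM, 2.21), and *Lcn2*, which binds bacterial iron carriers, was higher as well (1115 and 1733 RPM, 0.64). *Hmox1*, the enzyme that frees iron from heme, was lower (989 and 442 RPM, -1.16), as was *Abcg2*, a transporter that exports heme and also carries riboflavin into milk (138 and 58.4 RPM, -1.24). Among copper genes, *Slc31a2* was just past 1.5 times higher (17.8 and 26.8 RPM, 0.59), and *Sco1*, which hands copper to cytochrome c oxidase, was higher (7.69 and 13.0 RPM, 0.75).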

How the data were processed

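Poly(A) RNA of lineage-depleted MECs was sequenced in 1 WT and 1 *Igfbp7-/-* library (paired-end reads of 35 and 75 bp, SOLiD). The authors mapped the reads with a Bowtie pipeline in GeneSifter, allowing 3 mismatches. The submitters' processing notes name Bowtie 0.12.3, SAMtools 0.1.15 and mm9, whereas the methods name a human build. The methods say that ribosomal RNA was filtered out, while rows of ribosomal RNA hold 2.95% (WT) and 3.15% (*Igfbp7-/-*) of mapped reads. In the deposited files the counts are raw reads for each gene. The deposited RPM equals the count scaled to 1 total per library, taken here as the mapped reads, and the listed genes add up to less than that total. RPKM was deposited too, and differs from RPM by 1 length per gene. The annotation, strand setting and treatment of reads with several matches were not given in the sources used here. The 50 rows without a symbol held 0.049% of listed reads in WT and 0.067% in *Igfbp7-/-* and were left out.

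The genes, role groups and lists were chosen with earlier results of these data known. The text names every one of the 42 genes, gives the counting interval and position of those with at least 10 RPM in one library and a ratio past 1.5, and names genes of the further list of 55 that meet the same limits. Other genes of that list, and intervals and coordinates of other members, were added after their values were seen. Clopper-Pearson intervals (95%) were computed on read pairs (counts divided by 2), because most low counts were even (75.8% and 74.1% of genes with 1 to 20 reads). Removal of PCR copies was not stated, so intervals and floors cover counting error only. Alternatives were other added values, minimums, scalings (edgeR 4.0.16 TMM, median of ratios, reads on listed genes with and without the 20 highest) and a threshold of 2. Scripts were tested on simulated data. Gene positions matched the listed chromosome for 42 of 42 genes. Python 3.11.15, numpy 2.4.6, scipy 1.17.1, pandas 2.3.3, matplotlib 3.10.9 and R 4.3.3 were used.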

Additional observations from a re-analysis of the deposited data

How the results depend on the processing

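With 1 library per genotype, no replicate could be left out. No paired analysis was possible because each genotype had 1 library. The 12 metal handling genes past 1.5 times kept their direction in all 4 other scalings and with both other added values, and 11 of them stayed past 1.5 times in each. The exception was *Tfrc* (-0.55) with scaling to the reads on listed genes. That scaling raised the median of all genes by 0.19 and gave 8 genes higher (*Fth1*, *Slc30a1* and *Slc39a9* were added) and 6 lower, beside 30.3% and 18.4% of all genes, with a median log2 ratio of 0.17 in place of -0.02. Relative to the median of all genes the median was -0.05 in both. A minimum of 10 RPM left 1 gene higher and 6 lower (beside 20.7% and 20.4% of all genes), and 8 higher and 5 lower among the further metal genes. A threshold of 2 left 2 higher and 4 lower (beside 9.64% and 13.8% of all genes), and 5 higher and 5 lower among the further genes. The remaining counts were within 1.5 times of those reported. Of 222 single gene values recomputed, 31 lay outside their counting interval, 23 of them with scaling to the reads on listed genes. Values under 10 RPM, such as those of *Slc39a4*, *Slc39a2*, *Slc40a1* and *Slc30a2*, rest on few reads.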

Other observations

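Magnesium transporters of the further list were among the genes past 1.5 times. *Slc41a1*, a magnesium exporter of the cell surface, had 139.9 RPM in WT and 51.0 in *Igfbp7-/-* (log2 ratio -1.45, interval -1.57 to -1.34). Its relative *Slc41a2* had 36.3 and 41.4 RPM (0.19), and *Cnnm2* was just past 1.5 times higher (6.85 and 10.3 RPM, 0.59). *Mcoln1*, a lysosomal channel that lets iron and zinc out, was higher (6.29 and 10.3 RPM, 0.71).

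The following genes were chosen after their values were seen. Of iron use in mitochondria, the importers *Slc25a37* (35.8 and 27.4 RPM) and *Slc25a28* (13.4 and 10.9 RPM), the scaffold gene *Iscu* (16.2 and 11.5 RPM) and the sulfur donor *Nfs1* (7.31 and 7.68 RPM) were within 1.5 times. Erythroid genes were detected after the Ter119 depletion, with *Hba-a1*, whose value is uncertain because *Hba-a2* is a near-identical copy, at 201 RPM in WT and 288 in *Igfbp7-/-* and *Hbb-b1* at 669 and 697 RPM. *Epb4.2* was at 0 RPM in WT and 0.11 in *Igfbp7-/-*, from 4 reads. *Alas2* had a ratio below 0, with 19.1 RPM in WT and 12.8 in *Igfbp7-/-* (log2 ratio -0.58, just within 1.5 times). None of the 4 erythroid markers with at least 1 RPM passed 1.5 times, and 55.5% of all genes did not.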
